A study of Mus musculus with 4 samples.

Results

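The myosin and tropomyosin genes of mouse were followed here across 4 RNA-seq libraries of sorted alveolar type 1 (AT1) cells, the flattened epithelium across which gas passes in the alveolus. Members were chosen by symbol alone: every gene in the deposited tables named as a numbered Myo, Myh or Myl gene or as one of Tpm1 to Tpm4. The rule found 53 genes among 23990, and each was listed at a single position. Of the 53 members, 28 averaged 1 FPKM or more across all 4 libraries and were tested, and 25 lay below that level.

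Myosins are motor proteins that pull on actin filaments. A conventional myosin II molecule is built from a pair of heavy chains, each carrying an essential and a regulatory light chain. In the non-muscle and smooth muscle forms, phosphorylation of the regulatory chain switches the motor on. The unconventional myosins, classes I, III, V and upward, carry membranes, vesicles and other cargo or tether the cell membrane to actin. Tropomyosins lie along the actin filament as coiled coils and set which motors and partners can reach it. In lung epithelium this machinery holds the cortex under tension, shapes cell junctions and moves vesicles to the cell surface.

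The 4 libraries came from mice of mixed B6 and 129 background at postnatal day 3 or 4, all carrying Scnn1a-Cre, a Cre recombinase driven from the gene of a sodium channel subunit. By their labels, 2 libraries (Sox2) came from mice with Rosa[Sox2/+], a Sox2 transgene at the Rosa locus, and 2 (WT) from mice with Rosa[mTmG/+], a membrane reporter at the same locus, so the Cre was present in both groups. Both kinds came from littermates, the tissue was cut from the lobe edge, and no label says whether a library was made from 1 animal or several. P-values therefore measure only the spread between these libraries.

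Sox2 itself went against the labels. It stood at 1.41 and 1.99 FPKM in the Sox2-labelled pair and at 302 and 477 FPKM in the WT-labelled pair. Directions below follow the labels as deposited and so are opposite in sense to Sox2 itself. The labels may have been exchanged, and every direction below would then turn with respect to genotype. The deposited unit is FPKM, fragments per kilobase of transcript, scaled to the size of the library. From 11062 to 12096 genes per library were at 1 FPKM or above. The tables give a lower and an upper bound for each value, and over the tested members the median half-width of these bounds was 3.47% to 6.24% of the value per library. AT1 markers were present in all libraries and were higher in those labelled Sox2. Ager, the receptor that marks AT1 cells most widely, stood at 3260 and 3737 FPKM in the Sox2-labelled pair and at 496 and 157 FPKM in the WT-labelled pair. The summed level of 6 markers (Ager, Hopx, Pdpn, Aqp5, Rtkn2 and Cav1) was 4828 and 5671 FPKM in the Sox2-labelled pair against 958 and 568 FPKM in the WT-labelled pair, and 5 of the 6 were past the threshold. The 5 AT2 markers summed to 23593 and 16441 against 5591 and 898 FPKM, above the AT1 sum in every library. The 5 basal cell markers summed to 2.14 and 1.63 against 45.4 and 167 FPKM. Most of the basal sum in the WT-labelled pair was Dapl1, at 41.6 and 150 FPKM. Limma called Dapl1 and Trp63 lower in the Sox2-labelled pair, and Krt5 and Krt14 were not tested. Krt15 did not pass and lay the other way, at 1.75 and 1.60 against 1.46 and 1.43 FPKM. The 6 endothelial markers summed to 104 and 47.5 against 31.9 and 11.5 FPKM, with Cdh5 and Cldn5 called higher in the Sox2-labelled pair. Of 4 macrophage markers tested, Csf1r was called higher there. The other 3, Cd68, Marco and Mrc1, overlapped between labels and did not pass. These shifts run along the contrast used for the members, and their part in the results was not tested. In bulk libraries, fewer cells of a type and less RNA per cell cannot be told apart.

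Promoter sequence is shown for members that the account returns to: the 2 called members that have an entry, Myh7 and Myl6b, and 3 expressed members whose promoter holds a CArG box, the site bound by serum response factor. The windows are the 250 bases before the transcript start, from RefSeq on GRCm38.p6, printed 5′ to 3′ along the gene's strand. Capitals mark a match to 1 of 5 motifs searched on both strands. They are the CArG box, the MCAT element of TEAD factors with the letters CATTCC, the promoter element spelled TATAAA, the core CATTGT that SOX factors read, and the form AGATAA that zinc-finger factors of the GATA family read.
Myh7, chr14:54994550-54994799, minus strand: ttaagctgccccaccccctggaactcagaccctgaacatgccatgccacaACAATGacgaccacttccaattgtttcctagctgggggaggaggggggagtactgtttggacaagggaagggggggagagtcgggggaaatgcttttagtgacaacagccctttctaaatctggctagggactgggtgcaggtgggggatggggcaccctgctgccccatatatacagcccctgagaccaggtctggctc
Myl6b, chr10:128498686-128498935, minus strand: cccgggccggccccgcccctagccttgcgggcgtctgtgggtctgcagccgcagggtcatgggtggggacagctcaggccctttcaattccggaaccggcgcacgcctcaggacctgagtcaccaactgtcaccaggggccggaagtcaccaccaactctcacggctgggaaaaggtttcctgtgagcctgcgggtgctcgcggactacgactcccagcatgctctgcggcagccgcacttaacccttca
Myl6, chr10:128493010-128493259, minus strand: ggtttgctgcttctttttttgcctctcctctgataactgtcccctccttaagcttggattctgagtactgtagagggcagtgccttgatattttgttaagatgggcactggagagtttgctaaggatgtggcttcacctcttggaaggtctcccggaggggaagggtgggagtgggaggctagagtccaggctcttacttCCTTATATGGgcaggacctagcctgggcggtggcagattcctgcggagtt
Myl9, chr2:156775214-156775463, plus strand: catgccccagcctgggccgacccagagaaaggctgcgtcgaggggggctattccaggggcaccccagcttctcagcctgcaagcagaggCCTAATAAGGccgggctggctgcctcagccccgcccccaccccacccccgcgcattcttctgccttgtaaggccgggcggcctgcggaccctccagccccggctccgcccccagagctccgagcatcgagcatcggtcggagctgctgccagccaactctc
Myo1e, chr9:70207100-70207349, plus strand: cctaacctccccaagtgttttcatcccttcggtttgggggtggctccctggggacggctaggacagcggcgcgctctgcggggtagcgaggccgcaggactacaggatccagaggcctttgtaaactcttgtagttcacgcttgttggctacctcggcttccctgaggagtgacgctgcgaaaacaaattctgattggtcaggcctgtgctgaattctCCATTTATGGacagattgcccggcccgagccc
In the window of Myh7 the capitals are the reverse complement of CATTGT, in those of Myl6, Myl9 and Myo1e they are a CArG box, and the window of Myl6b holds none of the 5 motifs. Of the 53 members, 47 had a promoter entry and 6 had none, with 59 windows in all because some genes have several starts. A CArG box lay in 6 of the 59 windows (10.2%), against 1.47% of all 32851 windows of the same length. They belong to Myh4, Myl3, Myl6, Myl7, Myl9 and Myo1e. The MCAT element was in 22.0% of member windows against 12.6% of all, TATAAA in 16.9% against 12.4%, CATTGT in 15.3% against 10.7% and AGATAA in 6.78% against 9.99%. Myh7 and Myl6 each have a further window that is not shown. The shown window of Myl6 lies inside the deposited locus of the gene (chr10:128490861-128493825), so it precedes an internal start. Its further window, chr10:128493887-128494136, lies upstream of that locus and holds none of the 5 motifs. No matches of different motifs overlapped in the member windows. A match says that these letters stand in the window, not that a factor binds there.

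Between the labels, 2 members were higher in the Sox2-labelled pair, 1 was lower, and 25 of the 28 tested did not pass. Myh7, the slow heavy chain of striated muscle, was among the higher ones, and the essential light chain Myl6b was the lower one. The counts come from limma on log2(FPKM + 1), called at 0.05 after Benjamini-Hochberg adjustment across the 12040 genes tested. In that fit 4.2% of all tested genes were called higher and 8.11% lower, beside 7.14% and 3.57% of the tested members. The median log2 difference of the tested members, labelled Sox2 minus labelled WT, was 0.39, against -0.29 over all tested genes. It was 0.07 without labelled WT replicate 2, 0.69 without labelled WT replicate 1 and 0.08 with no filter on low values, where the median of all genes was -0.43, -0.16 and -0.07. Library values did not overlap between labels in 15 of the 28 tested members, where 58.1% of all tested genes did not overlap. The libraries labelled Sox2 were the higher ones in 12 of the 28 tested members and those labelled WT in 3 of the 28. These orders held for 15.7% and 42.5% of all tested genes.

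The split between higher and lower depends on how the libraries are scaled. Median-of-ratios rescaling moved the median of all genes by 0.29 and quantile normalization by 0.25, and after either one 8 members were higher and 1 was lower. The background was then 8.01% higher and 5.7% lower with the first and 8.14% higher and 6.87% lower with the second. The members added by both rescalings were Myh11, Myo1c, Myo5b, Myo5c, Myo6 and Myo9a. Differences below are given as fitted without rescaling, and 0.29 can be added to read them against the median gene. The sign of the difference turned from below 0 to above 0 under both rescalings in 5 members, Myh10, Myl12a, Myl6, Myo1d and Tpm2. None of these 5 was called. With no filter on low values none of the 3 called members passed in limma (adjusted p = 0.174 for Myh7 and 0.131 for Myl6b), nor did any partner gene named below. Single libraries also moved the differences and the calls. Without labelled WT replicate 1 the log2 difference was 2.93 for Myh7, -1.31 for Myl6b, 1.91 for Myl9, -0.15 for Myo5a and 0.45 for Tpm4. Without labelled WT replicate 2 the same genes stood at 1.22, -1.46, 0.13, -1.52 and -1.20. The median of all tested genes was -0.16 in the first of these fits and -0.43 in the second. Without labelled Sox2 replicate 1 neither Myh7 nor Myl6b passed, and without labelled Sox2 replicate 2 no member passed in limma, with 3 higher and 1 lower at an unadjusted p under 0.05.

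**Figure D1:**
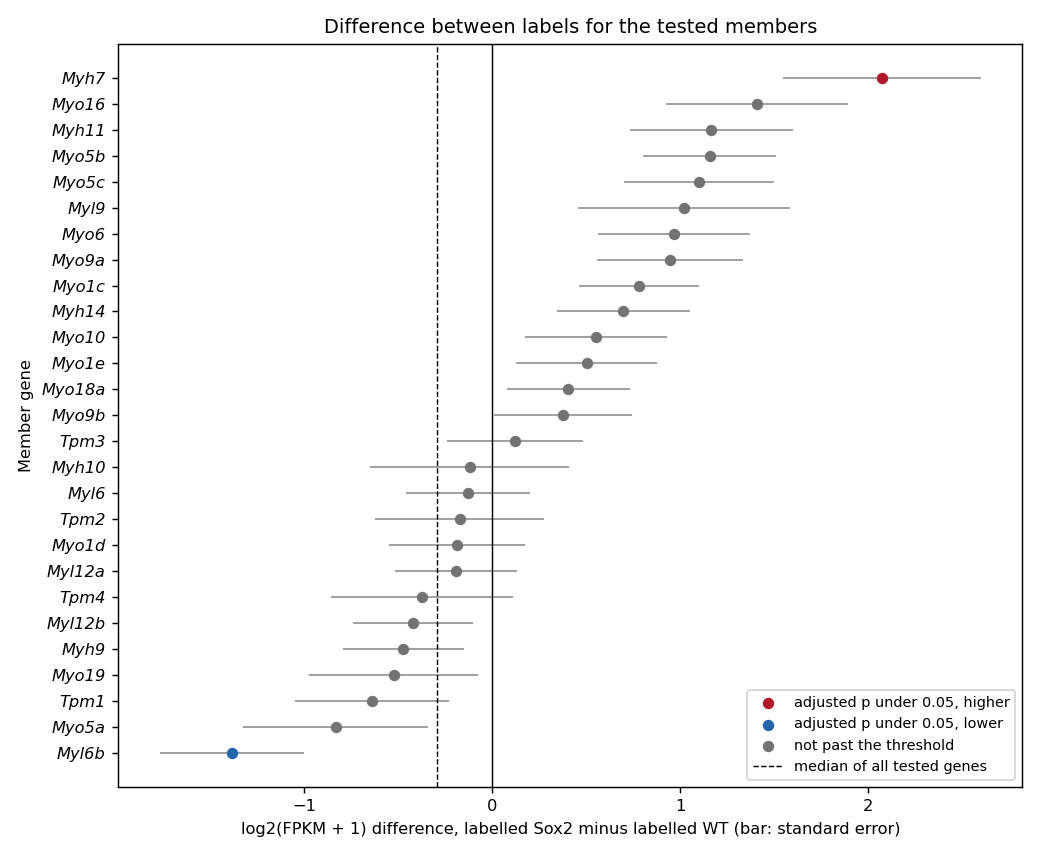
Difference in log2(FPKM + 1), labelled Sox2 minus labelled WT, for 27 tested members, with the standard error from limma as a bar. Red marks Myh7, called higher, blue Myl6b, called lower, grey the 25 not past the threshold, and the dashed line the median of all tested genes at -0.29.

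Non-muscle myosin II dominated the heavy chains, and limma called none of its 3 genes (0 at an unadjusted p under 0.05). Myh9 and Myh14 encode the heavy chains of non-muscle myosins IIA and IIC, and Myh10 that of IIB. Myh14 stood at 185 and 235 FPKM in the Sox2-labelled pair and at 171 and 96.2 FPKM in the WT-labelled pair. Both libraries labelled Sox2 were above both labelled WT, but the log2 difference of 0.70 (SE 0.35) did not pass in limma (adjusted p = 0.214). Myh9 stood at 117 and 160 against 217 and 167 FPKM. Its order was the opposite one, again without overlap and without passing (log2 difference -0.48, limma SE 0.32, adjusted p = 0.358). Myh10 was low beside them, at 15.0 and 7.94 against 22.5 and 6.20 FPKM, and its groups overlapped.

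The make-up of this class separated the labels as well. Since FPKM is per transcript length, members can be set beside each other within a library, and a share of the class is not touched by scaling a whole library. Myh14 made up 58.4% and 58.4% of the summed non-muscle heavy chain level in the Sox2-labelled pair, against 41.6% and 35.8% in the WT-labelled pair. Myh9 made up 36.9% and 39.6% against 52.9% and 61.9%. Myh14 was therefore the leading heavy chain in both libraries labelled Sox2 and Myh9 in both labelled WT. The mean share of Myh14 was 19.7 percentage points higher (58.4% ± 0.0185 against 38.7% ± 4.11, SD, n = 2 each), between 16.8 and 22.6 points with any 1 library left out. With 2 against 2 libraries an exact two-sided permutation test cannot give a p below 0.333, so shares are described without one. The summed level of the class, at 316 and 403 against 410 and 269 FPKM, overlapped between labels.

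The muscle heavy chains were low or at 0. Myh11, the heavy chain of smooth muscle, stood at 4.79 and 3.14 FPKM in the Sox2-labelled pair and 1.92 and 0.634 FPKM in the WT-labelled pair. The groups did not overlap, and the log2 difference of 1.16 (SE 0.43) did not pass in limma (adjusted p = 0.102), but passed after median-of-ratios (0.0345) and quantile (0.0281) rescaling and without labelled WT replicate 1 (0.0337). The 8 markers of smooth muscle and myofibroblasts, among them Acta2 and Tagln, summed to 80.9 and 36.0 against 41.5 and 13.8 FPKM, with 1 of 5 tested called higher (Des, desmin), none lower and none of the 8 at 0 throughout. Their part in the level of Myh11 was not tested.

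Myh7 was the one striated heavy chain above the test level. It stood at 10.5 and 9.40 FPKM in the Sox2-labelled pair and at 3.69 and 0.435 FPKM in the WT-labelled pair. Both libraries labelled Sox2 were above both labelled WT, and the deposited bounds did not overlap either. The means were 9.94 ± 0.776 and 2.06 ± 2.31 FPKM (SD, n = 2 each), a 4.82-fold difference, with a log2 difference of 2.07 (limma SE 0.53, adjusted p = 0.0287). The fold rests on the libraries labelled WT: it was 22.9 without labelled WT replicate 1 and 2.69 without labelled WT replicate 2. The limma call was lost without labelled WT replicate 2 (log2 difference 1.22, adjusted p = 0.147), without labelled Sox2 replicate 1 (adjusted p = 0.138) or 2 (0.183), and when only genes averaging 5 FPKM were kept (0.0542).

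Myh7 lies on the minus strand of chromosome 14 (mm10, 54970688 to 54994549), 4080 bases from Myh6, the fast heavy chain of heart muscle. Myh6 stood at 1.24 and 1.40 against 0.459 and 0.00892 FPKM, the same order, and was not tested because its mean was below 1 FPKM. The genes share sequence: 15.6% of the distinct 50-base stretches in Myh7 transcripts of the GENCODE M21 annotation also occur in Myh6, and 20.2% of those of Myh6 in Myh7, so how fragments were divided between them is uncertain. An antisense gene, Gm31251, covers 6.07% of the exon bases of Myh7, and no source used here says whether counting used strand. Markers of heart muscle were near 0 in the same libraries. The 6 markers (Actc1, Tnnt2, Tnni3, Nppa, Ryr2 and Myom2) summed to 3.39 and 1.97 FPKM in the Sox2-labelled pair and 2.03 and 1.14 FPKM in the WT-labelled pair, 5 of the 6 stayed under 1 FPKM in every library, and none was tested. The 6 skeletal muscle markers stayed under 1 FPKM as well. Myh7 exceeded the sum of the 6 heart markers in the same library in 3 libraries and lay below it in labelled WT replicate 2. The part of heart cells in the level of Myh7 was not tested.

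The other 8 striated heavy chains, Myh1, Myh2, Myh3, Myh4, Myh7b, Myh8, Myh13 and Myh15, did not exceed 0.135 FPKM in any library. Myh3, Myh2, Myh1, Myh4, Myh8 and Myh13 lie in that order in a single cluster on the plus strand of chromosome 11. Myh2, Myh4 and Myh15 were listed at 0 in all 4 libraries.

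Light chains ranged from 0 to the top of the family. Myl6, the essential light chain of non-muscle and smooth muscle myosin, had the highest level of all 53 genes, with 766 and 740 FPKM in the Sox2-labelled pair and 897 and 758 FPKM in the WT-labelled pair. The groups overlapped (log2 difference -0.13, limma SE 0.33, adjusted p = 0.835). Its neighbour Myl6b, another essential light chain, was far lower and was called. Myl6b stood at 0.996 and 0.695 FPKM in the Sox2-labelled pair and at 4.06 and 3.56 FPKM in the WT-labelled pair, with no overlap of values or of deposited bounds. The log2 difference was -1.39 (limma SE 0.39, adjusted p = 0.0404), or 4.51-fold between the means of 0.845 ± 0.213 and 3.81 ± 0.350 FPKM (SD, n = 2 each). The limma call was lost without labelled Sox2 replicate 1 (adjusted p = 0.146) or 2 (0.316) and without labelled WT replicate 1 (0.0668), and the fold stayed between 3.83 and 5.49 with any 1 library left out. Both genes lie on the minus strand of chromosome 10, Myl6 at 128490861 to 128493825 and Myl6b at 128494157 to 128498685, with 331 bases between them. Myl6 made up 99.4% to 99.8% of the essential light chain level in every library, and the share of Myl6b was 0.13% and 0.0936% against 0.45% and 0.467%.

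Among the regulatory light chains, Myl12a and Myl12b held nearly all of the level. Myl12a stood at 348 and 325 FPKM in the Sox2-labelled pair and 457 and 325 FPKM in the WT-labelled pair (log2 difference -0.20, limma SE 0.33, adjusted p = 0.739). Myl12b stood at 204 and 192 against 223 and 316 FPKM, without overlap but without passing (log2 difference -0.42, limma SE 0.32, adjusted p = 0.415). The genes are close copies on chromosome 17, where the deposited loci lie 3276 bases apart while exons of the GENCODE M21 annotation overlap over 462 bases. In that annotation 16.2% of the 50-base stretches of Myl12a occur in Myl12b, so the division of fragments between them is uncertain. Myl9, a regulatory chain typical of smooth muscle, stood at 21.6 and 9.76 against 13.3 and 3.16 FPKM. Its groups overlapped, and replicate 1 was the higher library under each label, as it was for the summed smooth muscle markers. Sums of AT2, ciliated, fibroblast, heart muscle, skeletal muscle, endothelial, leukocyte and macrophage markers had the same order. The AT1, basal, pericyte, erythroid and mesothelial sums did not. The log2 difference of Myl9, 1.02 (SE 0.56), did not pass in limma (adjusted p = 0.256). The chains Myl2, Myl7 and Myl10 were below the test level. So were the essential chains Myl1, Myl3 and Myl4.

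**Figure D2:**
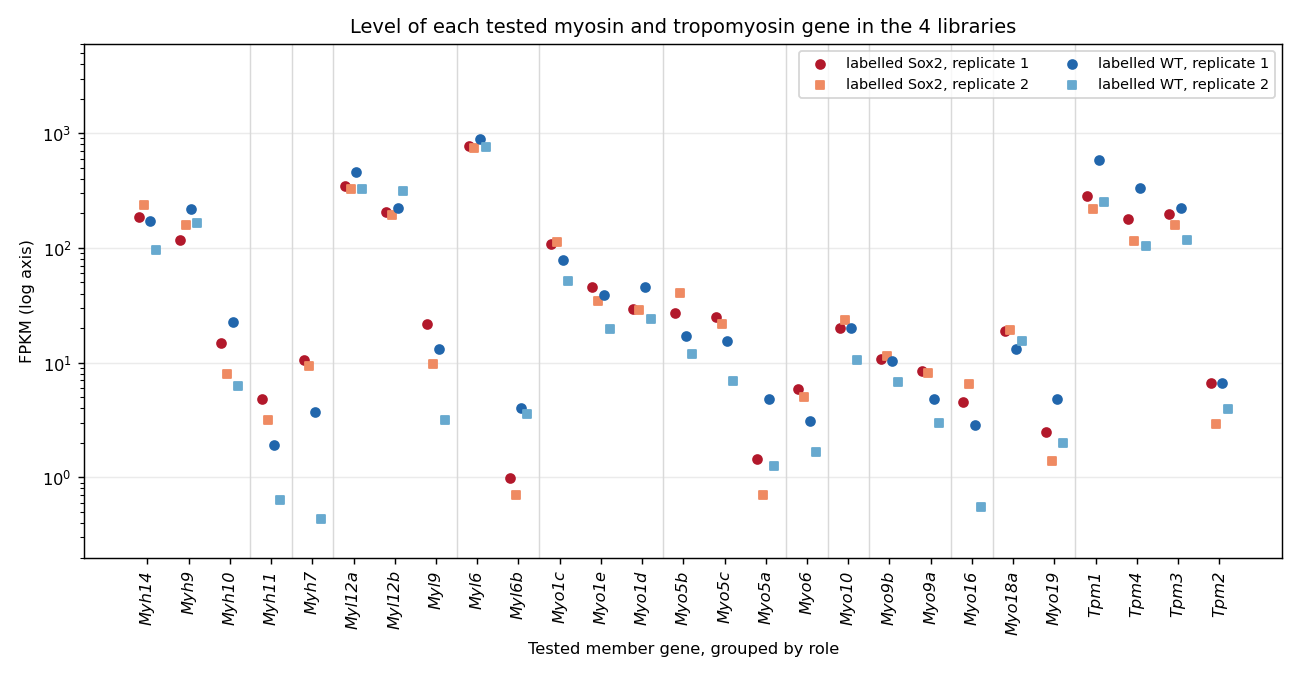
FPKM on a log axis of 27 tested members in each of the 4 libraries, grouped by role, with labelled Sox2 in red and orange and labelled WT in dark and light blue. Myl6 lies above all others at 740 to 897 FPKM. The 2 labels lie apart in the called members Myh7 and Myl6b and also in several members that were not called.

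Class I motors are single-headed and link the plasma membrane and endosomes to actin. Myo1c, a motor of vesicle delivery to the surface, was the most abundant of the class at 107 and 113 FPKM in the Sox2-labelled pair against 78.6 and 51.8 FPKM in the WT-labelled pair. The groups lay apart, and the log2 difference of 0.78 (limma SE 0.32, adjusted p = 0.134) passed only under the rescalings (0.0462 and 0.0413). Myo1e, which acts in endocytosis and at junctions, stood at 45.7 and 34.7 against 38.9 and 19.8 FPKM, and Myo1d at 29.4 and 29.0 against 46.0 and 24.2 FPKM. Both overlapped between labels. Within the class the share of Myo1d was 12.9% and 12.8% in the Sox2-labelled pair and 25.4% and 23.4% in the WT-labelled pair. The share of Myo1c overlapped, at 46.9% and 49.9% against 43.4% and 50.0%. Myo1f and Myo1g, class I motors of white blood cells, were below the test level, with at most 1.48 and 1.38 FPKM. The 6 leukocyte markers summed to 72.1 and 31.2 against 40.4 and 18.7 FPKM, and limma called none of the 6 (1 at an unadjusted p under 0.05). Replicate 1 was the higher library under each label for these markers and for both motors. Myo1a, a motor of the intestinal brush border, did not exceed 0.0685 FPKM, and Myo1h did not exceed 0.514 FPKM.

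Class V motors carry vesicles along actin, and limma called none of their 3 genes (2 at an unadjusted p under 0.05, Myo5b and Myo5c). Myo5b, which moves recycling endosomes to the apical surface, stood at 26.9 and 40.6 FPKM in the Sox2-labelled pair and 17.0 and 12.0 FPKM in the WT-labelled pair. Its log2 difference of 1.16 (SE 0.35) missed the threshold (limma adjusted p = 0.0556) and passed, among other settings, under the rescalings (0.0449 and 0.0395) and the robust variance model (0.0312). Myo5c, a motor of secretory granules in glandular epithelium, stood at 25.2 and 21.7 against 15.3 and 6.93 FPKM (log2 difference 1.10, limma SE 0.40, adjusted p = 0.0931). Both genes had the libraries labelled Sox2 above those labelled WT. Myo5a, the motor of pigment granules and of neuronal vesicles, stood at 1.45 and 0.696 against 4.83 and 1.26 FPKM and overlapped (log2 difference -0.83, limma SE 0.49, adjusted p = 0.286). It passed without labelled WT replicate 2 (limma adjusted p = 0.0196). Myo5a and Myo5c are neighbours on the plus strand of chromosome 9, 8326 bases apart, and whether their differences differ from each other was not tested. Myo5a held 2.71% and 1.10% of the class level in the Sox2-labelled pair and 13.0% and 6.26% in the WT-labelled pair. The shares of the main members overlapped, at 50.3% and 64.4% against 45.8% and 59.4% for Myo5b. For Myo5c they were 47.0% and 34.5% against 41.2% and 34.3%.

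**Figure D3:**
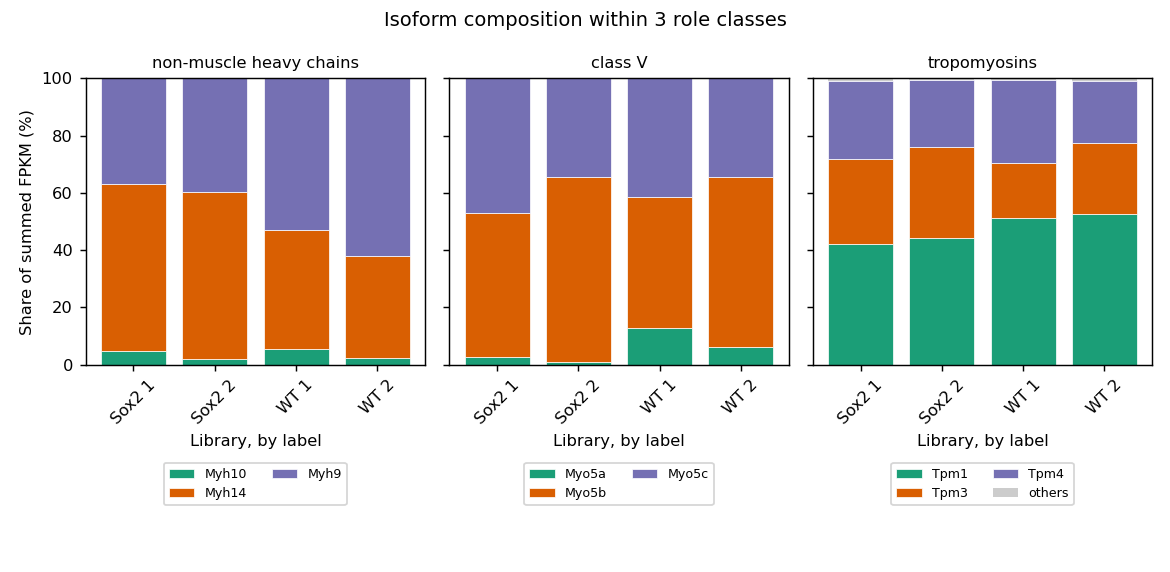
Share of the summed FPKM (%) that each member takes within 3 role classes, 1 bar per library, with members that stay under 1% drawn together as others. Myh14 leads the non-muscle heavy chains in both libraries labelled Sox2 and Myh9 in both labelled WT. The shares of Myo5a, Tpm1 and Tpm3 also separate the labels, while those of Myh10, Myo5b, Myo5c, Tpm2 and Tpm4 overlap.

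The remaining unconventional myosins were moderate or low, and limma called none, while Myo6, Myo9a and Myo16 had an unadjusted p under 0.05. Myo6, which walks towards the minus end of actin and drives endocytic uptake, stood at 5.87 and 4.99 FPKM in the Sox2-labelled pair and 3.08 and 1.65 FPKM in the WT-labelled pair (log2 difference 0.97, limma SE 0.41, adjusted p = 0.141). Myo9a and Myo9b are the motors of class IX. Myo9a stood at 8.39 and 8.15 against 4.84 and 2.97 FPKM (log2 difference 0.94, limma adjusted p = 0.134), and Myo9b at 10.8 and 11.5 against 10.3 and 6.80 FPKM (0.37, limma adjusted p = 0.542). In all 3 genes the libraries labelled Sox2 were the higher ones, and Myo6 and Myo9a passed under both rescalings.

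Myo16, an unconventional myosin known mainly from neurons, stood at 4.56 and 6.57 FPKM in the Sox2-labelled pair and 2.86 and 0.554 FPKM in the WT-labelled pair. The groups lay apart, and the log2 difference of 1.41 (SE 0.48) did not pass in limma (adjusted p = 0.0806), except under the robust variance model (0.0431) and without labelled WT replicate 1 (0.00378). Myo10, the motor of filopodium tips, stood at 20.1 and 23.6 against 20.2 and 10.4 FPKM, with labelled WT replicate 2 alone at the low level. Myo18a, tied to the shape of the Golgi, stood at 18.9 and 19.2 against 13.1 and 15.3 FPKM (log2 difference 0.40, limma adjusted p = 0.45). Myo19, the motor of mitochondria, stood at 2.50 and 1.38 against 4.80 and 1.98 FPKM and overlapped. The motors of sensory hair bundles stayed below the test level: Myo7a at most at 1.44 FPKM, Myo3b at 0.288 FPKM and Myo15 at 0.0677 FPKM. Myo3a was listed at 0 in every library, and Myo7b and Myo18b did not exceed 0.0101 and 0.00797 FPKM.

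Tropomyosins were high, and none of the 4 genes was called by limma (0 at an unadjusted p under 0.05). Tpm1 stood at 281 and 217 FPKM in the Sox2-labelled pair and at 590 and 253 FPKM in the WT-labelled pair (log2 difference -0.64, limma SE 0.41, adjusted p = 0.327). Tpm4 stood at 180 and 114 against 331 and 105 FPKM, and Tpm3 at 196 and 158 against 221 and 118 FPKM. Tpm2, which smooth muscle makes in quantity, was low at 6.63 and 2.91 against 6.62 and 3.98 FPKM. Values overlapped between labels in all 4, and labelled WT replicate 1 was the highest library for Tpm1, Tpm3 and Tpm4. The summed level was 664 and 492 against 1148 and 480 FPKM. Shares separated the labels for Tpm1 and Tpm3, where levels did not. For Tpm2 and Tpm4 the shares overlapped as well, with Tpm4 at 27.2% and 23.2% in the Sox2-labelled pair against 28.8% and 21.8% in the WT-labelled pair. Tpm1 made up 42.3% and 44.1% of the tropomyosin level in the Sox2-labelled pair and 51.3% and 52.7% in the WT-labelled pair. Tpm3 made up 29.5% and 32.0% against 19.2% and 24.7%. The difference in the share of Tpm1 was -8.77 percentage points, between -9.67 and -7.87 points with any 1 library left out. Each gene makes several forms by alternative starts and splicing, and the deposited values are per gene.

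A set of 94 genes that work with these motors was examined beside them, chosen by role. Of 66 tested, 4 were higher in the Sox2-labelled pair and 9 lower, and 53 did not pass, with a median log2 difference of 0.05. That is 6.06% higher and 13.6% lower, beside 4.2% and 8.11% of all tested genes. No actin was called by limma (0 of 4 tested at an unadjusted p under 0.05). Actb, the main cytoplasmic actin, stood at 2116 and 1592 against 3054 and 2545 FPKM (log2 difference -0.60, limma adjusted p = 0.316). No troponin reached the test level, and Tnni3 was the highest with at most 0.986 FPKM. The myosin chaperone Unc45a stood at 15.4 and 15.4 against 16.3 and 11.7 FPKM and was not called.

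Filament partners held the largest differences shown. Of 13 tested, 1 was higher (7.69%) and 4 were lower (30.8%), beside 4.2% and 8.11% of all tested genes. Tmod1 caps the slow-growing end of filaments coated with tropomyosin. It stood at 11.2 and 12.8 FPKM in the Sox2-labelled pair and at 0.543 and 0.461 FPKM in the WT-labelled pair, a 23.9-fold difference (log2 difference 3.11, limma SE 0.38, adjusted p = 0.000918). Its relative Tmod3 was lower, at 51.9 and 42.2 against 167 and 105 FPKM (log2 difference -1.48, limma adjusted p = 0.0173). Cnn3, an acidic calponin, stood at 31.0 and 16.1 against 191 and 132 FPKM (log2 difference -2.77, limma adjusted p = 0.00153). Actn4, a crosslinker of the α-actinin family, was lower as well (-1.11, limma adjusted p = 0.0466).

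Enzymes that set the phosphorylation of the regulatory light chain mostly did not pass. Of 19 tested, 1 was higher, 1 lower and 17 not past. Dapk2, a kinase that can phosphorylate the chain, stood at 39.5 and 27.6 FPKM in the Sox2-labelled pair against 6.33 and 5.42 FPKM in the WT-labelled pair (log2 difference 2.31, limma adjusted p = 0.00279). Ppp1r14b, an inhibitor of the phosphatase that acts on the chain, stood at 41.8 and 30.4 against 162 and 134 FPKM (-2.02, limma adjusted p = 0.00326). The kinases Rock1 and Rock2 and the light chain kinase Mylk were not called.

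Of 12 adaptors that join unconventional myosins to cargo, 1 was called higher (8.33%) and 0 lower, beside 4.2% and 8.11% of all tested genes. Dab2, the adaptor that recruits Myo6 to endocytic receptors, stood at 7.75 and 7.71 FPKM in the Sox2-labelled pair and at 1.83 and 0.205 FPKM in the WT-labelled pair (log2 difference 2.24, limma SE 0.46, adjusted p = 0.0119). The limma call was lost without labelled Sox2 replicate 1 or 2. Of 10 brush border, stereocilium and filopodium partners 5 were tested and limma called none (2 at an unadjusted p under 0.05). Ezr, the membrane linker ezrin, was the most abundant of them at 204 and 203 against 479 and 343 FPKM (log2 difference -0.99, limma adjusted p = 0.0663).

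**Figure D4:**
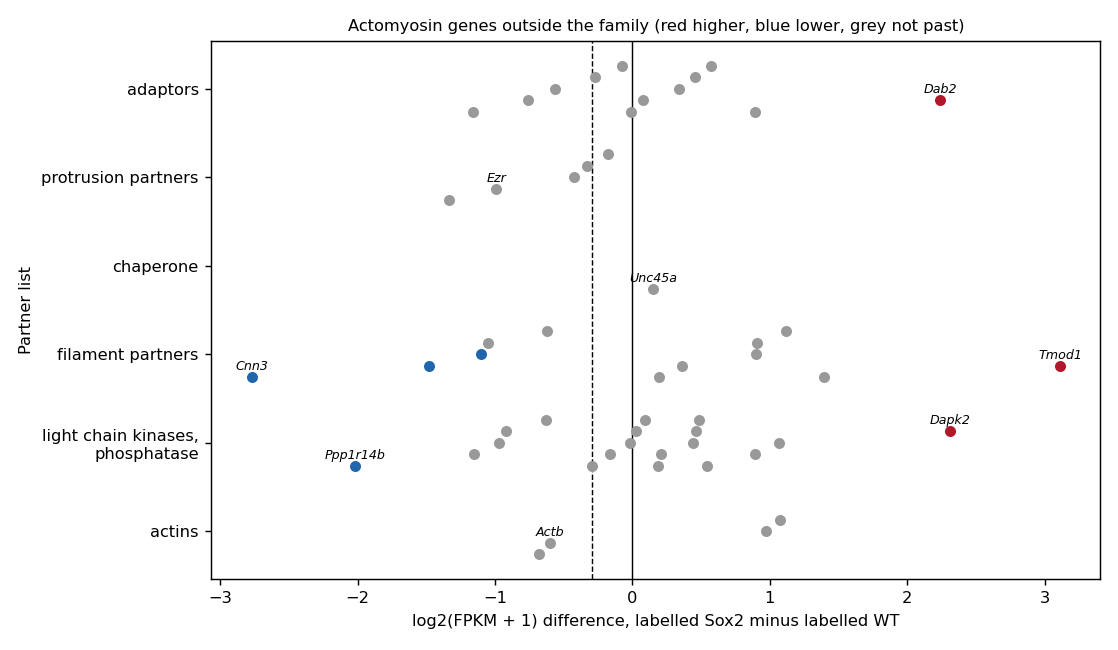
Difference in log2(FPKM + 1), labelled Sox2 minus labelled WT, of 53 tested partner genes by list, with the genes chosen by the naming rule written out. Red marks the 3 genes called higher, blue the 4 called lower and grey those not past the threshold, and the dashed line is the median of all tested genes at -0.29.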

How the data were processed

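The authors' deposited tables hold FPKM per gene for each library, with a lower and an upper bound. Build mm10 and the tools TopHat2, Bowtie2, Cufflinks and Cuffdiff are named, per the submitters' processing notes. Their versions, the gene annotation and whether counting used strand are not given here. A further table whose 2 value columns could not be tied to the labels was not used.

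Each table had 24490 entries. Entries of the same symbol were added (267 genes), and 1 gene with a failed value was left out. The 12040 genes averaging 1 FPKM or more were tested on log2(FPKM + 1) with limma 3.58.1 under R 4.3.3 (lmFit, eBayes with trend, two-sided, Benjamini-Hochberg adjustment, threshold 0.05), with 2 residual degrees of freedom per gene. The fit was tested on simulated data. The pseudocount of 1 understates the change of low genes. Groups and replicate numbers came from the titles. Counts were not rebuilt, since 66.6% to 70.2% of low values implied a whole number of fragments within 0.1, so absolute depth is unknown.

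The rule for named genes takes members past the threshold, all Tpm genes and the 2 most abundant members of each role class, which makes 27, and up to 3 called genes per partner list or the most abundant one. Myh10, Myl9, Myo1d, Myo5a, Tmod3, Actn4, Mylk, Rock1, Rock2 and other members below the test level were added after their values were seen. Members and lists were chosen with earlier results of these data known. Deposited starts count from 0 (the start was 1 lower than in GENCODE M21 for 8452 genes, and equal for 771), so 1 was added. Some genes and 1 partner list enter the counts but are not reported here.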

Additional observations from a re-analysis of the deposited data

How the results depend on the processing

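The alternatives were the pseudocount set to 0.1, all genes not at 0 throughout kept (no filter), only genes averaging 5 FPKM kept, rescaling by median-of-ratios or quantiles, robust or trend-free variance estimation, the replicate block, and each library left out. Where 1 library of a label remained, it was assumed to vary like the other label's. No called member changed sign under any of them.

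Over all genes, 506 were higher and 976 lower. The counts higher were 964 and 980 under the rescalings, 0 with no filter, and 119 to 837 with 1 library left out. The counts lower were 3 with no filter and 115 to 1312 with 1 library left out. Of the members, 2 were higher and 1 lower. The number higher was 8 under either rescaling, 4 under the robust model, 1 with a filter at 5 FPKM, 0 with no filter and 0 to 7 with 1 library left out. The number lower was 0 with no filter or with a filter at 5 FPKM, and 0 to 3 with 1 library left out. Of the partner genes, 4 were higher and 9 lower. The number higher was 9 under either rescaling, 0 with no filter and 2 to 11 with 1 library left out, and the number lower 0 with no filter and 2 to 10 with 1 library left out. With no filter, limma gave an unadjusted p under 0.05 for 1251 genes higher and 2618 lower, for 7 members higher and 1 lower, and for 13 partner genes higher and 20 lower. The share of Myl6b differed by -0.35 percentage points, and by -0.41 after quantile normalization.

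With the replicate block, limma called 1142 genes higher and 2730 lower, 8 members higher (Myh7, Myh11 at an adjusted p of 0.0166, Myl9 at 0.0302, Myo5b at 0.033, Myo5c at 0.0284, Myo6 at 0.0285 and Myo9a at 0.032 among them), Myl6b lower, and 12 partner genes higher and 17 lower. The numbers in the titles are not said to pair libraries. Deviations of same-numbered libraries correlated at 0.23 across the 12040 genes, which are not independent. Library depth is unknown, and among tested members the deposited bounds were relatively widest for Myl6b, Myh7 and Myl9, each in its lowest library.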
